A study of Mus musculus with 4 samples.

Results

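Chemokines and chemokine receptors were described here as they were measured in 4 cultured mouse melanoma lines. Members were taken by gene symbol, namely every probe named Ccl, Cxcl, Xcl, Cx3cl, Ccr, Cxcr, Xcr or Cx3cr with a digit, and older names of the same genes. By this rule 56 of the 33012 probes of the array were members. The first name of the symbol was the match for 50 of them, 4 carry an older name, and 2 list Cx3cl1 behind another name of the same locus. The older names are Blr1 for Cxcr5, Gpr2 for Ccr10, Il8ra for Cxcr1 and Il8rb for Cxcr2. The members stand for 51 genes, 32 ligands and 19 receptors, where the 3 probes shared by Ccl21a, Ccl21b and Ccl21c are counted as 1 gene, Ccl21.

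The parental line, B16, is a melanoma of the C57Bl6 strain (B16F1 in the protocols). Its cells were injected into the back skin of C57BL6 mice, and tumour cells that had reached lymph nodes gave B16-RI. A further round of injection with B16-RI gave B16-RII from lymph node metastases and B16-RIIL from those of the lung. All 4 lines were grown in DMEM with fetal bovine serum and no other treatment of the cultures is given, and none is labelled as a clone. How many mice stand behind a line is not given in the sources used here. The RNA of each line was pooled from 2 passage numbers, and the study describes duplicate cultures and arrays. The labels name 1 array per line. The deposited table also has columns for further arrays, which may be the duplicates, but no label ties them to a sample and they were not used. The differences between lines given here therefore have no replicate check, and none was tested. A probe is called detected when its signal-to-noise ratio (S/N) is at least 3 and its flag at most 5000.

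Chemokines are small secreted proteins that guide migrating cells along a gradient. They act through receptors that span the membrane and couple to G proteins, and are grouped by the spacing of their first cysteines into CC, CXC, C and CX3C families. One part of the family keeps leukocytes moving through lymphoid organs, skin and gut at rest, and another is switched on by inflammation through NF-kappa B and interferon signalling. Tumour cells can secrete chemokines that draw in leukocytes, and can carry receptors that are matched by ligands of lymph node or lung.

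The transcript of an interferon-induced chemokine, Cxcl10, was called above B16 in every passaged line, and the region before its start is therefore shown beside that of its neighbour Cxcl9, which is induced by the same cytokine. The sequences are from RefSeq, build GRCm38.p6, and cover the 250 bases before the start of each gene, written 5′ to 3′ on the strand of the gene. Cxcl10 lies at chr5:92348890-92349139 and Cxcl9 at chr5:92328080-92328329, both on the minus strand. Capitals mark matches, on either strand, to the interferon-stimulated response element searched as GAAA, any 2 bases and GAAA, and to the kappa B motif.
Cxcl10: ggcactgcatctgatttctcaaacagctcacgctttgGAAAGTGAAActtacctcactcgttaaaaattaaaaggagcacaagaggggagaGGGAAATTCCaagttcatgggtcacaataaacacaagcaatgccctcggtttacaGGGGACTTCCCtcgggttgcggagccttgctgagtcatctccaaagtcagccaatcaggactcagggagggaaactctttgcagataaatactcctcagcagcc
Cxcl9: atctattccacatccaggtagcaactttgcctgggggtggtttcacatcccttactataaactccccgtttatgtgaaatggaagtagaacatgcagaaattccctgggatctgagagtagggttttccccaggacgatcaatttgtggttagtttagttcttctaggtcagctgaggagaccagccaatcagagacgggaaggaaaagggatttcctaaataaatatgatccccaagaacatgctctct

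The Cxcl10 window held 1 match to the interferon-stimulated response element, which begins 213 bases before the start. It also held 2 stretches that match the kappa B motif, beginning 159 and 104 bases before the start, the nearer of which holds overlapping matches. The Cxcl9 window held no match to these letters. Of all 32851 windows of this length in the table, 2.98% hold the interferon motif and 7.25% the kappa B motif. The table had windows for 38 of the 51 member genes. Of their 43 windows, 3 held the interferon motif (Ccl19, Cxcl10 and Cxcl14) and 8 the kappa B motif (Ccl1, Ccl9, Ccr1, Ccr3, Ccr6, Cxcl1, Cxcl2 and Cxcl10). These matches describe the sequence, and binding was not measured.

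Most members stayed below the detection limit in every line. Only 20 of the 56 probes, for 19 genes, were detected on at least 1 array, which is 35.7%, where 56.6% of all probes were. The B16 array detected 10 members, B16-RI 8, B16-RII 10 and B16-RIIL 14, or 17.9%, 14.3%, 17.9% and 25.0%. Of all probes 43.5%, 42.0%, 44.7% and 45.0% were detected on these arrays. Ligands made up 12 of the 20 detected probes and receptors 8. The brightest receptor probe over noise reached an S/N of 5.08, while Cxcl10 had an S/N of 64.3 or more on every array. Of the 36 probes detected nowhere, Cxcl16 on B16-RI came nearest at an S/N of 2.97, followed by Ccr4 and the other Cx3cl1 probe with 2.93 in B16.

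**Figure D1:**
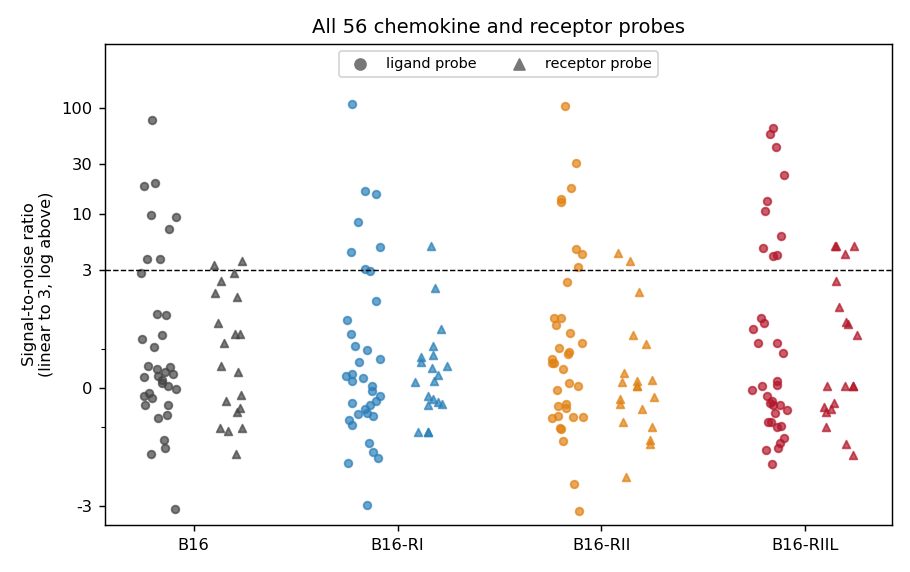
Signal-to-noise ratio (vertical axis, no unit, linear up to 3 and logarithmic above) of all 56 member probes on each array, with circles for ligands and triangles for receptors and the detection limit of 3 as a dashed line. Between 8 and 14 probes per array lie above the limit, and no receptor lies above 5.08.

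Signals are given below as the deposited normalized signal, in arbitrary units that compare arrays for 1 probe and not probes with each other. These values carry a general offset, which for probes that all 4 arrays detected had a median of 0.21 log2 units for B16-RI relative to B16, 0.41 for B16-RII and 0.22 for B16-RIIL. The signal had been divided by separate constants for 2 sets of probes, so the offset was 0.39, 0.41 and 0.46 in a set of 16524 probes and 0.07, 0.42 and -0.01 in the other 16488. Differences are therefore also given with each set centred on its own median, called set-centred. A dimmer signal that its array did not detect was raised to the lowest signal detected on that array, if it lay under it. The ratio is then a bound, given as "at least". That lowest signal is taken over all probes, so the bound does not use a detection limit of the probe itself. Bounds are on the deposited scale unless another scaling is named. A probe was called above or below another line when its signals differed at least 2-fold as measured and the brighter array detected it.

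Relative to B16, 3 members were above and 3 below on B16-RI, 3 above and 2 below on B16-RII, and 7 above and 2 below on B16-RIIL. These are 5.36% and 5.36%, 5.36% and 3.57%, and 12.5% and 3.57% of the 56 probes. Over all probes 4.95% were above and 4.55% below on B16-RI, 6.51% and 3.79% on B16-RII, and 6.42% and 4.25% on B16-RIIL. The members called on B16-RI and B16-RII were thus near the share of all probes, and the share above B16 in B16-RIIL was higher than that of all probes. With set-centred values the split on B16-RII became 1 above and 3 below, against 3.30% and 5.66% of all probes. The counts of B16-RI and B16-RIIL were the same as before, against 3.87% and 5.48%, and 4.09% and 5.25%, of all probes. In all, 14 members (25.0%) were called in at least 1 passaged line, where 20.2% of all probes were, and Cxcl10 and Ccr9 were called in all 3 passaged lines.

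**Figure D2:**
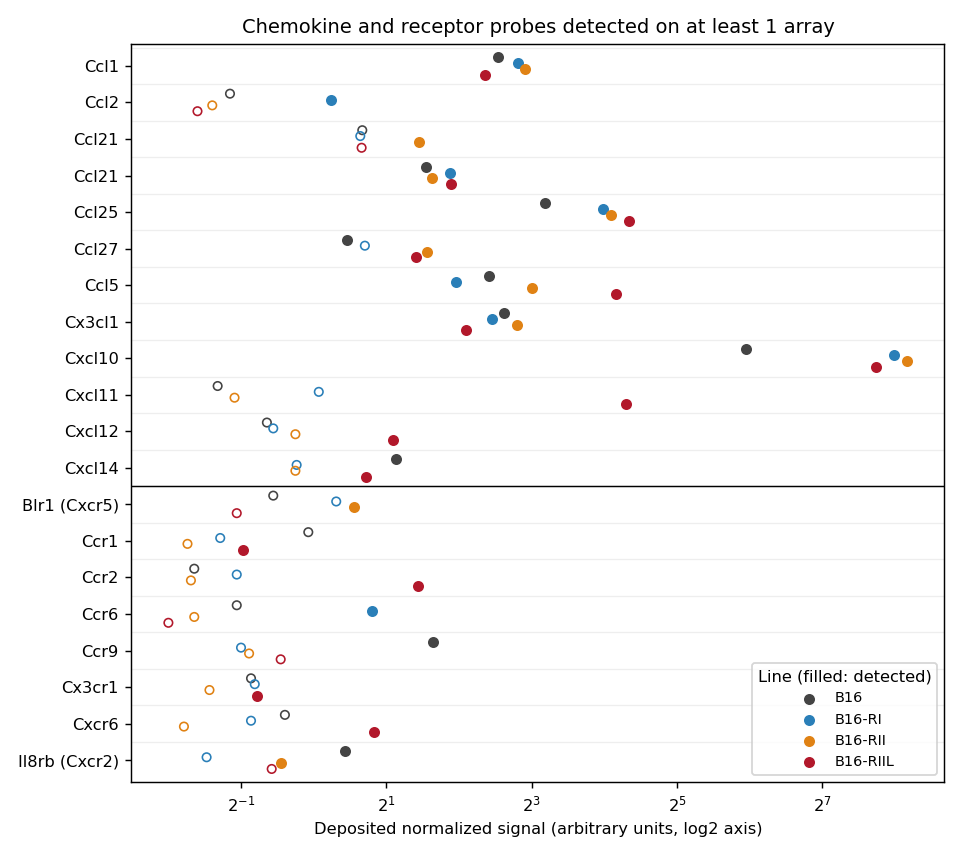
Deposited normalized signal (horizontal axis, arbitrary units, log2 scale) of the 20 member probes detected on at least 1 array, with ligands above the line and receptors below it. Colours stand for the lines, filled points are detected and open points are not. Cxcl10 lies at 61.6 in B16 and between 213 and 289 on the passaged lines, and Cxcl11 is filled only on B16-RIIL, at 19.7.

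Among the inflammatory CXC ligands, Cxcl10 was detected in all lines and was higher in each passaged line. Cxcl10, which attracts activated T cells through Cxcr3, gave 61.6 in B16, 254 in B16-RI, 289 in B16-RII and 213 in B16-RIIL as its signal. The passaged lines were thus all above B16 and lay within 1.36-fold of each other. The ratio to B16 was 4.13-fold, 4.69-fold and 3.46-fold, and 3.14-fold, 3.49-fold and 2.41-fold with set-centred values.

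Cxcl11, another ligand of Cxcr3, was detected on B16-RIIL alone. Its signal was 0.40 in B16, 1.05 in B16-RI, 0.47 in B16-RII and 19.7 in B16-RIIL, where the S/N was 43.1. This was at least 49.2-fold above B16, 18.8-fold above B16-RI and 41.9-fold above B16-RII. With set-centred values these bounds were lower, at 34.5-fold, 17.2-fold and 39.1-fold. With bounds and measured differences ranked together, Cxcl11 had the largest value of all members under each scaling run, and its own was a bound. In RefSeq the Cxcl11 gene of the C57BL/6J genome is annotated as a transcribed pseudogene, so the probe measured a transcript and says nothing of a protein. Cxcl9, the remaining ligand of this receptor, had signals from 0.25 to 0.52 and was not detected on any array. The receptor itself, Cxcr3, had signals from 1.48 to 1.85 with S/N from 1.08 to 2.73 and was not detected either.

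The neutrophil attractants of the CXC group, Cxcl1, Cxcl2, Cxcl5, Cxcl7 and Cxcl15, and the platelet chemokine Cxcl4 were not detected in any line. One of their receptors, Il8rb (Cxcr2), was detected on B16 with a signal of 1.35 and on B16-RII with 0.73, at S/N of 3.63 and 4.35. It was at 0.36 in B16-RI and 0.67 in B16-RIIL without being detected, which was at least 3.21-fold and 2.01-fold below B16. The difference between B16-RII and B16 was -0.89 log2 units and passed the 2-fold limit under each of the other scalings, at -1.07 to -1.41.

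Ccl5, a CC ligand that attracts T cells and monocytes, was detected in every line. Its signal was 5.35 in B16, 3.89 in B16-RI, 8.0 in B16-RII and 17.97 in B16-RIIL. The lung line was thus the highest and the first lymph node line the lowest. B16-RIIL was 3.36-fold above B16, 4.62-fold above B16-RI and 2.25-fold above B16-RII, and 3.34-fold, 4.61-fold and 3.0-fold with set-centred values. B16-RI was at 0.727 of B16 and B16-RII at 1.5-fold B16, both within the 2-fold limit. On B16-RIIL the probe carried a flag of 64, below the limit, as did 305 detected probes of that array.

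Ccr3, a receptor of eosinophils, was not detected on any array. Ccr1, a receptor of monocytes, passed the S/N limit on B16-RIIL, with a signal of 0.51, but its highest signal was 0.95 in B16, where the S/N was 2.30. Its detection on that array does not therefore show a higher signal there.

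Ccl2, which attracts monocytes through Ccr2, was detected on B16-RI only. Its signal there was 1.18, against 0.45 in B16, 0.38 in B16-RII and 0.33 in B16-RIIL, and it was at least 2.62-fold above B16. Ccr2 was in turn detected on B16-RIIL only, with signals of 0.32 in B16, 0.48 in B16-RI, 0.31 in B16-RII and 2.71 in B16-RIIL. It was at least 8.47-fold above B16, with an S/N of 5.08 and a flag of 64. The CC ligands Ccl3, Ccl4, Ccl6, Ccl7, Ccl9, Ccl11 and Ccl24, were not detected in any line.

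**Figure D3:**
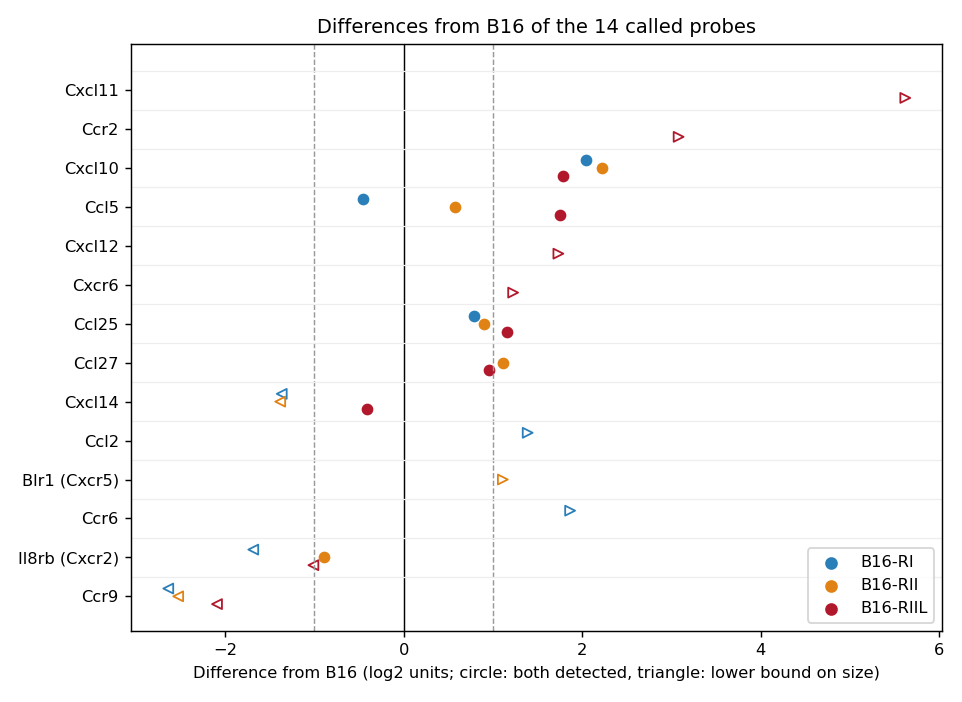
Difference from B16 (horizontal axis, log2 units) of the 14 probes called in at least 1 passaged line, with the 2-fold limits dashed. Circles are detected on both arrays, and triangles are bounds as defined in the text, where 1 array did not detect the probe. No symbol is drawn where neither array did, or where the undetected signal was the higher. Cxcl10 lies to the right in all 3 lines, at 2.05, 2.23 and 1.79, and Ccr9 to the left in all 3.

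Of the ligands that direct cells at rest, Ccl25 was the one called above B16 that every array detected. Ccl25 draws T cells and gut immune cells through Ccr9 and gave signals of 9.12 in B16, 15.8 in B16-RI, 17.0 in B16-RII and 20.3 in B16-RIIL. Each passaged line was thus above B16, by 1.73-fold, 1.87-fold and 2.23-fold, and the last of these passed the limit. With quantile normalization it was 0.90 and with 75th percentile scaling 0.92 log2 units, both short of the limit. The order of B16-RI and B16-RII turned under each of the other scalings run, where B16-RII minus B16-RI was -0.31 to -0.28 log2 units in place of 0.11. Ccl25 lies on chromosome 8, on which the 403 genes detected on all arrays had a median difference between B16-RIIL and B16 of 0.62 log2 units, against 0.26 for 7105 genes of all chromosomes. The part of this shift in the Ccl25 difference of 1.15 was not tested. Its receptor Ccr9 was detected on B16 only, with an S/N of 3.33. The Ccr9 signal was 3.11 in B16, 0.50 in B16-RI, 0.54 in B16-RII and 0.73 in B16-RIIL. This was at least 6.22-fold, 5.76-fold and 4.26-fold lower in the passaged lines, and 8.12-fold, 7.77-fold and 6.10-fold with set-centred values.

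Ccl1, a ligand of Ccr8 made by activated T cells, was detected in every line with little spread, at 5.83 in B16, 7.0 in B16-RI, 7.51 in B16-RII and 5.14 in B16-RIIL. Cx3cl1, a membrane-bound chemokine that lies on chromosome 8 as well, had signals of 6.13, 5.49, 6.96 and 4.29 in the same order on the probe that was detected. Neither gene reached the 2-fold limit in any pair of lines, under any scaling run. Ccr8 was not detected in any line. Cx3cr1, the receptor of Cx3cl1, had signals of 0.55 in B16, 0.57 in B16-RI, 0.37 in B16-RII and 0.58 in B16-RIIL and was detected on B16-RIIL only, with a flag of 64. B16-RIIL was at least 1.57-fold above B16-RII, and 2.07-fold and called with set-centred values.

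Among the ligands of skin and lymphoid tissue, Ccl27, a chemokine of the epidermis, had signals of 1.37 in B16, 1.63 in B16-RI, 2.96 in B16-RII and 2.66 in B16-RIIL and was not detected on B16-RI. It was 2.16-fold above B16 in B16-RII, and 1.60-fold with set-centred values. Its receptor Ccr10, listed as Gpr2, was not detected. For Ccl21, which leads cells into lymph nodes through Ccr7, the probes disagreed. One was detected in every line at 2.93, 3.68, 3.10 and 3.71, another on B16-RII alone at 2.74, and the remaining one in no line, and the copies of this gene cannot be told apart. Ccr7 was not detected, nor were Ccl19, Ccl17, Ccl22, Ccl28 and Cxcl13. Blr1 (Cxcr5), the receptor of Cxcl13, was detected on B16-RII only, with signals of 0.68 in B16, 1.24 in B16-RI, 1.47 in B16-RII and 0.48 in B16-RIIL. It was at least 2.16-fold above B16, and 1.60-fold with set-centred values.

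Cxcl14, a chemokine of epithelia, was detected on B16 with a signal of 2.19 and on B16-RIIL with 1.65. On B16-RI it was at 0.85 and on B16-RII at 0.84, not detected and at least 2.58-fold and 2.61-fold below B16. B16-RIIL differed from B16 by -0.41 log2 units, and by -0.93 with set-centred values. Its bounds against B16-RI and B16-RII were 0.96 and 0.97 log2 units, and neither was called. Cxcl12, the ligand of Cxcr4, was detected by 1 of its 2 probes and on B16-RIIL only. Its signal there was 2.13, against 0.64 in B16, 0.68 in B16-RI and 0.84 in B16-RII. This was at least 3.33-fold above B16, and 2.31-fold with set-centred values. The other Cxcl12 probe had signals from 0.35 to 0.68 and was not detected. Cxcr4, a receptor often named in metastasis, had signals from 0.55 to 0.67 with an S/N of at most 0.65, so it was not detectable here in any line.

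Single receptors were detected in 1 line each. Ccr6, the receptor of Ccl20, was detected on B16-RI, with a signal of 1.75 against 0.48 in B16, 0.32 in B16-RII and 0.25 in B16-RIIL, at least 3.65-fold above B16. Cxcr6, the receptor of Cxcl16, was detected on B16-RIIL, with 1.78 against 0.76 in B16, 0.55 in B16-RI and 0.29 in B16-RII, at least 2.34-fold above B16. With 75th percentile scaling the Cxcr6 difference was 0.999 log2 units and just missed the limit. Xcl1, Xcr1, Ccr1l1, Ccr4 and Il8ra (Cxcr1) were not detected, although the Ccr4 signal on B16 was 11.9 with an S/N of 2.93.

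The lung and lymph node lines of the same round were also compared. On B16-RIIL, 5 members were above B16-RII (8.93%, and 3.85% of all probes) and 1 was below (1.79%, and 4.73% of all probes). Above were Ccl5, Cxcl11, Cxcl12, Ccr2 and Cxcr6, and below was Blr1. B16-RIIL was at least 7.32-fold above B16-RII for Ccr2, 4.81-fold for Cxcr6 and 2.54-fold for Cxcl12, and these 5 genes were also above on B16-RIIL when it was set against B16-RI (8.93%, and 5.43% of all probes). With set-centred values the counts were 6 above B16-RII, with Cx3cr1 added, and 5 above B16-RI, against 4.48% and 4.96% of all probes, and 1 and 2 below, against 3.34% and 4.25%. Below B16-RI were Ccl2 and Ccr6, both on B16-RIIL (4.07% of all probes) and on B16-RII (3.27%, and 4.03% set-centred). Above B16-RI on B16-RII were Ccl5 and Il8rb (4.93%), the latter with a bound of 1.74-fold, and neither was with set-centred values (3.38%). Over all 6 pairs of lines, 14 members were called (25.0%, and 24.7% of all probes). Detected on B16-RIIL and on no other array were 6 members (10.7%, and 3.60% of all probes), namely Cxcl11, Cxcl12, Ccr1, Ccr2, Cx3cr1 and Cxcr6. Only B16-RI detected 2, Ccl2 and Ccr6 (2.51% of all probes), only B16-RII 2, Blr1 and 1 Ccl21 probe (2.94%), and only B16 1, Ccr9 (3.32%). In the order B16, B16-RI, B16-RII and B16-RIIL, 2 members detected on B16-RIIL, Ccl25 and Cxcl12, had ever higher signals and at least 2-fold in total (3.57%, and 2.00% of all probes). B16-RII and B16-RIIL both come from the round 2 injection, so this order is not one of passages, and Cxcl12 was not detected on the first 3 arrays. Gpr2 had signals of 0.95, 1.33, 1.56 and 2.53 in this order and is not counted, since no array detected it. With set-centred values no member did (0.878% of all probes).

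Several of these receptors are best known from leukocytes, so markers of other cells were read on the same arrays. By the brightest probe of each gene, of 10 lymphocyte markers 3 were detected on B16, 3 in B16-RI, 2 in B16-RII and 4 in B16-RIIL, and their summed signal ranged from 65.07 in B16 to 89.25 in B16-RII, with 68.45 in B16-RIIL. The sum compares arrays over the same probes. Cd79a alone had signals of 55.99, 65.97, 80.2 and 59.82, within the 2-fold limit. The leukocyte gene Ptprc and the markers Cd3d, Cd79b and Ms4a1 were not detected on any array. Of the T cell marker Cd3e the brightest probe was not detected, while a dimmer one was detected on B16-RIIL only, with an S/N of 3.16, and called above B16 there at a bound of 2.03-fold. A dimmer Cd79a probe was detected on B16-RI and B16-RIIL, with S/N of 3.49 and 3.24, and called above B16 on both, and the B16-RIIL call was lost with set-centred values. Of 11 macrophage and dendritic cell markers 2, 2, 1 and 1 were detected, with sums from 10.8 to 12.4, and Adgre1, Cd68, Itgam, Itgax, Aif1, Fcgr1, Cd14 and Marco were detected on none. A dimmer Csf1r probe was detected on B16-RII only, with an S/N of 3.10, at a bound of 2.26-fold above B16 that was not called with set-centred values. With set-centred values the brighter Csf1r probe was called below B16 on B16-RI and B16-RII, and Lyz2 on B16-RII. Cd3g was detected on B16-RIIL only, with an S/N of 3.77, and Cd4 in B16-RI and B16-RIIL, with 3.08 and 3.74. Of 6 lung epithelium markers 2 were detected on B16, Epcam and Sftpb with S/N of 3.31 and 3.92, and 2 on B16-RIIL, Epcam and Scgb1a1 with 4.21 and 4.88, while the surfactant genes Sftpc and Sftpd were detected on none. In RNA of a whole culture, fewer cells with a transcript and less of it per cell cannot be told apart. Of 7 melanocyte markers 6 were detected on every array, among them Tyrp1, Dct and Pmel, and Ednrb on none. Kit was 3.73-fold above B16 on B16-RIIL, also called with set-centred values. Of 7 fibroblast markers 3, 2, 3 and 3 were detected in the order of the lines, with summed signals of 13.96, 22.19, 13.45 and 23.83. Col1a2 was 2.37-fold above B16 on B16-RI and 2.64-fold on B16-RIIL, neither called with set-centred values, and Col1a1 at least 2.57-fold below on B16-RI, and called below in all 3 passaged lines with set-centred values. Of 8 endothelial markers 0, 0, 1 and 1 were detected. Pecam1 was at least 4.69-fold above B16 on B16-RII, with an S/N of 4.15, also called with set-centred values. Sftpb was called below B16 in every passaged line, and Epcam on B16-RI and B16-RII. The part of these markers in the members' differences was not tested.

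The genes around the chemokine system were read from 4 lists, each counted with the brightest probe per gene. For scale, of all probes 4.95% were above and 4.55% below B16 in B16-RI. In B16-RII 6.51% and 3.79% were, and in B16-RIIL 6.42% and 4.25%. These shares are over all probes and not over 1 probe per gene, and the list counts were not tested against them. Atypical receptors bind chemokines without G protein signalling. In a list of 12 genes that joins them with chemokine-like genes such as Mif and the Cmtm family, 1 was above B16 in B16-RI, 2 in B16-RII and 3 in B16-RIIL, and 1 was below, on B16-RIIL. Ackr3, listed as Cmkor1, takes up Cxcl11 and Cxcl12, and had signals of 0.68 in B16, 2.67 in B16-RI, 0.47 in B16-RII and 1.91 in B16-RIIL. B16-RI exceeded B16 at least 3.93-fold and B16-RIIL at least 2.81-fold for this gene, with S/N of 6 and 3.15. The latter call was lost with set-centred values. Ackr4, listed as Ccrl1, which takes up Ccl21 and Ccl25, exceeded B16 at least 3.22-fold on B16-RIIL. Ccrl2 exceeded B16 at least 2.81-fold on B16-RII, with an S/N of 3.62. Cmklr1, the chemerin receptor, was at least 2.15-fold below on B16-RIIL. Cmtm7 was 2.14-fold above B16 in B16-RII and 2.05-fold on B16-RIIL, and neither call was made with set-centred values.

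**Figure D4:**
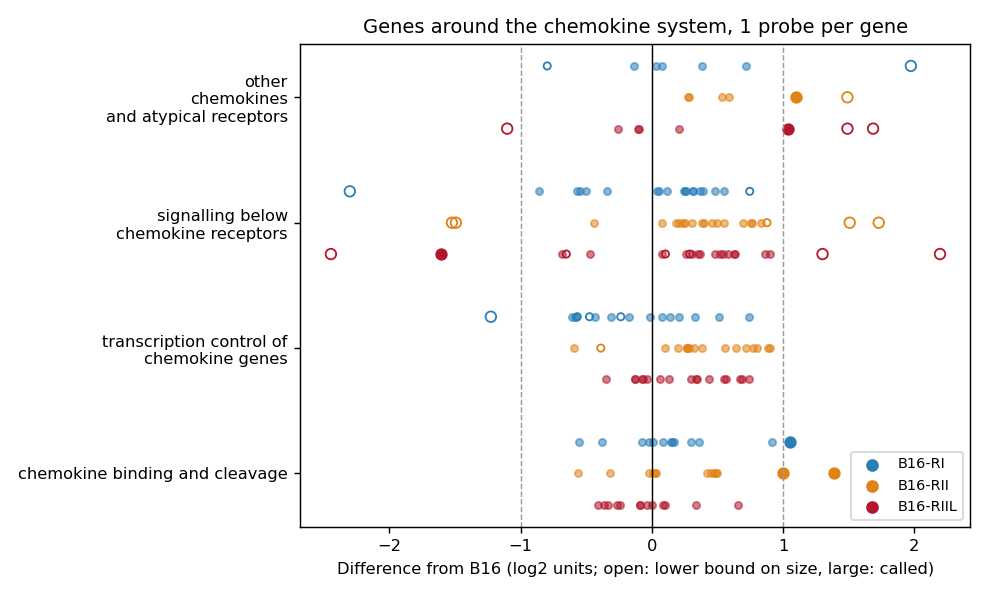
Difference from B16 (horizontal axis, log2 units) of genes in 4 lists around the chemokine system, 1 probe per gene, coloured by line. Open points are bounds as defined in the text, large points were called, and dashed lines mark the 2-fold limit. In the deposited values plotted, no gene of transcription control is called on B16-RII or B16-RIIL.

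Of 35 signalling genes below the receptors, 0 were above and 1 below B16 in B16-RI, 2 and 2 in B16-RII, and 2 and 2 in B16-RIIL. Tiam1, an exchange factor for Rac, was below B16 in each passaged line, with a signal of 2.07 in B16, 0.40 in B16-RI, 0.72 in B16-RII and 0.38 in B16-RIIL. This was at least 4.93-fold, 2.88-fold and 5.45-fold, and only B16 detected the probe, with an S/N of 3.51. Gng2, a G protein gamma subunit detected on every array, was 3.05-fold below B16 in B16-RIIL, with signals of 17.5 in B16 and 5.73 in B16-RIIL. Pik3cb was at least 2.82-fold below on B16-RII. Pik3r1 exceeded B16 at least 2.84-fold on B16-RII and 4.58-fold on B16-RIIL, with S/N of 4.33 and 3.46. Tiam2 was at least 3.31-fold above on B16-RII, with an S/N of 8.9. Vav1, another exchange factor for Rac, was at least 2.46-fold above on B16-RIIL, with an S/N of 15.23.

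Of 22 genes that control chemokine transcription, in the NF-kappa B, interferon and AP-1 pathways, 1 was called. It was Nfkbiz, at least 2.34-fold below B16 in B16-RI. Jun, which differed by -0.60 log2 units on B16-RII, was called below B16 there with set-centred values. Of 15 genes of chemokine binding and cleavage 1 was above B16 in B16-RI and 2 in B16-RII. These were Ext1 at 2.07-fold, and Hs2st1 at 2.00-fold and the heparan sulfate carrier Sdc4 at 2.62-fold, none of which was called with set-centred values. A dimmer probe was called for Ndst1, a heparan sulfate enzyme, and Gnai2, a G protein alpha subunit, where the brightest was not. That of Ndst1 had signals of 2.90, 1.13, 0.90 and 1.43 in B16, B16-RI, B16-RII and B16-RIIL and lay below B16 by at least 2.57-fold, 3.22-fold and 2.03-fold, with set-centred calls the same. That of Gnai2 was 2.11-fold above B16 on B16-RII and not called with set-centred values. Another Gnai2 probe, detected on every array, differed there by -0.67 log2 units and was called below B16 with set-centred values, so the Gnai2 probes disagreed. A dimmer Gng2 probe was called below B16 on B16-RII and B16-RIIL with set-centred values only. Less the median of all genes, the list medians lay between -0.43 and 0.18 log2 units over the 3 lines. The lowest was that of transcription control on B16-RI, also under each of the other scalings. The value of 0.18 was that of the chemokine-like genes and atypical receptors on B16-RI, where it is the value of Cmtm4, and was 0.01 with set-centred values.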

How the data were processed

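Total RNA of 4 cultured lines was labelled with digoxigenin and measured on Mouse Genome Survey V2.0 arrays (Applied Biosystems), read by chemiluminescence. For 33012 probes the deposited table gives an intensity before and after normalization, and the S/N and flag of the analyzer, each deposited as a score. The authors' methods name quantile normalization, but the deposited normalized intensity was the raw one divided by 2 constants per array. The quotient lay within 2% of its constant for 100% of values above 1. The limits on S/N and flag are those of the study's methods. The table also has 30 columns for further arrays, 20 of them per-sample values, which no label names, and 14 columns that hold log2 values and ratios of the arrays used, including the authors' own comparisons. None of these was used.

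Log2 of the normalized intensity was taken without a pseudocount, and calls and bounds were made as given above. With the 1 array per line that the labels name, no p-value was computed, and the number of arrays limits precision. Members, lists and limits were chosen with earlier results of these data known. Named are the members detected on at least 1 array and genes of 4 lists (atypical receptors, signalling, transcription control, binding and cleavage) called against B16, and these lists hold no member. Some members and markers are counted but not reported by name here. Markers were of melanocytes, lymphocytes, macrophages, fibroblasts, endothelium and lung epithelium. They were counted by the brightest probe of each gene. Names, chromosomes and sequences were from RefSeq tables of GRCm38.p6, which matched all 56 members, and the files name no build. The list median of all genes was over 10279 genes detected on at least 1 array. Alternatives were other scalings, detection filters, size limits and 1 probe per gene. Python 3.11.15, numpy 2.4.6, pandas 2.3.3 and matplotlib 3.10.9 were used, and the calls were tested on simulated data.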

Additional observations from a re-analysis of the deposited data

How the results depend on the processing

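Signal over background limits these values, since most called differences from B16 are bounds and detected receptors had S/N of 3.33 to 5.08. The labels assign 1 array to each line, so neither a paired analysis nor a check that drops 1 replicate at a time was possible. The columns for further arrays, which may be duplicates, were not used. In all, 75 of 112 alternative counts and list medians stayed within 1.5 times or 0.2 log2 units, and of 327 alternative values for single probes 12 lost and 5 gained a call, with 0 reversed calls. The cause was not tested unless the construction shows it.

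On B16-RII, 3 members above B16 became 1 with 75th percentile scaling and 1 with set-centred values. Without a detection filter B16-RI had 6 above and 8 below in place of 3 and 3, B16-RII 10 below in place of 2, B16-RIIL 8 below in place of 2, and against B16-RII 10 above and 3 below in place of 5 and 1. With an S/N of at least 5, B16-RI had 1 above and 1 below, B16-RII 1 and 1, B16-RIIL 0 below B16 and 0 below B16-RII, and 6, 4 and 5 members were detected on B16, B16-RI and B16-RII in place of 10, 8 and 10. With detection on both arrays there was 1 above and 0 below on B16-RI, 0 below on B16-RII, and 3 above and 0 below on B16-RIIL in place of 7 and 2. Against B16-RII it was 1 above and 0 below. At 4-fold, B16-RI had 1 above and 1 below, B16-RII 1 and 1, B16-RIIL 2 and 1, and against B16-RII 3 and 0. At 1.5-fold, B16-RII had 5 above, and B16-RIIL had 8 above and 3 below B16-RII. Apart from set-centred values, the share of all probes was not computed under these settings. The counts therefore show only how the member calls depend on the settings. The signalling list on B16-RI moved from 0.05 to -0.16 with set-centred values, and the binding and cleavage list on B16-RII from -0.0012 to -0.27 with quantile normalization, both less the median of all genes.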
